A study of Aspergillus niger with 16 samples.

Results

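In *Aspergillus niger*, 52 genes without a name here had lower transcript levels in every carbon source and time sampled when the gene *gaaR* was missing. They were chosen from 11580 genes listed in any library, by the ratio R, the log2 of (mean FPKM in the deletion strain + 1) over (mean FPKM in the reference strain + 1). FPKM is a read number scaled by gene length and library total. A gene was kept where R was at or below -1, which is a level at least 2-fold lower on this scale, in all 4 conditions. The rule leaves out 21 genes that carry a name from work on this regulator. The added 1 understates the change of genes with low levels.

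The groups differed in strain, carbon source and time. The reference strain was CBS 141257, and CBS 141258 was the strain without *gaaR*. Pre-culture in complete medium with 2% fructose lasted 16 h for both, followed by washing and transfer to a minimal medium (pH 6, 30 °C, 250 rpm). The carbon source there was either D-galacturonic acid (GA, 25 mM, sampled after 2 h) or sugar beet pectin (SBP, 1%, sampled after 2, 8 and 24 h), and every combination of strain and condition had 2 libraries of mycelial RNA. Each genotype is represented by 1 strain, so any other difference between the strains cannot be told apart from the deletion. The labels do not state that replicates were separate cultures, so p-values measure only how far these samples spread, and that spread may be technical. In RNA from bulk mycelium, fewer cells of a type and less RNA per cell cannot be told apart.

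Pectin is a plant cell wall polymer whose backbone consists largely of GA, which the fungus releases outside the cell and takes up. The activator GaaR turns on the genes of this route, and GaaX represses them. Inside the cell the reductase GaaA, the dehydratase GaaB and the aldolase GaaC convert GA to pyruvate and L-glyceraldehyde, and GaaD reduces the latter to glycerol. The transporter GatA brings GA in. Pectinases such as the exopolygalacturonase PgaX and the pectin lyase PelA release it from the polymer.

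Of the 21 left-out genes, 12 met the same rule. They are the catabolic genes *gaaA*, *gaaB* and *gaaC*, the transporter gene *gatA*, the regulator genes *gaaX* and *gaaR*, the polygalacturonase genes *pgaX*, *pgxB* and *pgaC*, the pectin lyase gene *pelA*, the pectin methylesterase gene *pmeC* and the β-galactosidase gene *lacC*. As the deleted gene, *gaaR* was bound to meet the rule. The names of the left-out genes were recalled from publications and not looked up. None of the 52 tags was found among the 14404 genes of the RefSeq table at hand, which describes another strain (assembly ASM285v2), so 0 members have a name or a role here, and each is called by its NRRL3 tag.

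Expected counts summed to 3203011 to 4574019 per library, and 10245 to 10857 genes were listed in each. Replicates correlated at 0.9606 to 0.9847 over genes on the log2 scale. The deleted gene *gaaR* had 176 to 1984 reads in the reference libraries and 0 to 30 in the deletion libraries. The deletion libraries of GA held 30 and 1 of its reads, those of SBP at 2 h held 0 and 12, those of 8 h held 24 each, and those of 24 h held none. The member genes together took 0.973% to 3.09% of all reads in the reference libraries and 0.0526% to 0.601% in the deletion libraries. Abundant members weigh most in these sums. The reference libraries of SBP at 24 h stood at 2.65% and 0.973%, with 117762 and 44490 member reads. NRRL3_01338 held 32298 and 5092 of these reads, and NRRL3_01334 held 30628 and 6098.

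Some libraries stood apart from their replicate over the members. On SBP at 24 h the reference libraries differed by over 2-fold for 23 members (44.2%), against 7.21% of all genes over 5 FPKM. In the deletion strain this held for 23 members (44.2%) on GA, against 10.7% of genes. On SBP at 2 h it held for 18 members (34.6%), against 12% of genes. At 8 h it held for 10 members (19.2%), against 3.34% of genes, and at 24 h for 10 (19.2%), against 2.01%. In the reference strain the shares were 1.92% on GA, 7.69% after 2 h on SBP and 5.77% after 8 h. All genes over 5 FPKM stood at 3.24%, 2.79% and 2.74% there. The members were counted at any level, and 13 of the 52 had 0 reads in at least 1 deletion library. Shares of members and of genes over 5 FPKM are therefore taken over unlike sets, and spread from few reads was not set apart. On GA the deletion library with 30 *gaaR* reads was the higher of its pair for 42 members and the lower for 8, and it was the higher one for 67.9% of all genes over 5 FPKM. On SBP at 2 h the deletion library with 12 *gaaR* reads was higher for 33 members, lower for 18 and higher for 65.6% of all genes over 5 FPKM. Deletion pairs with equal *gaaR* reads were uneven over the members too. At 8 h replicate 1 was higher for 31 members and 48.4% of genes, and lower for 19 members. At 24 h replicate 1 was higher for 15 members and 56.6% of genes, and lower for 29 members. The median member of the deletion strain on GA stood at 12.1% of the reference mean in the library with 30 *gaaR* reads and at 5.31% in the other. On SBP at 2 h the medians were 15.4% in the library without a *gaaR* read and 20.4% in the library with 12. The part of these library differences in the members' values was not tested. Without both deletion libraries of higher *gaaR* reads at 2 h and the reference SBP 24 h replicate 1, a choice made after seeing the data, 64 genes met the rule, of which 42 were among the 52.

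The values that chose the members are given as a description, with no test. A ratio at or below -1 was reached by 1770 genes on GA (15.3% of all), by 612 after 2 h on SBP (5.28%), by 1615 after 8 h (13.9%) and by 1117 after 24 h (9.65%). Reaching it in all 4 conditions was limited to 64 genes (0.553%), the 52 members and the 12 named genes. Another 256 genes (2.21%) reached it in 3 conditions, 886 (7.65%) in 2, 2318 (20%) in 1, and 8056 (69.6%) in none.

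The member ratios were lowest on SBP at 8 h. The median R over the 52 was -2.75 on GA, -1.97 after 2 h on SBP, -3.66 after 8 h and -3.00 after 24 h, while the median over all genes was 0.11, 0.04, 0.00 and 0.13. In terms of levels, the median member kept 9.53% of its reference level on GA, 17.4% after 2 h on SBP, 5.86% after 8 h and 7.44% after 24 h. Under 10% was left for 27 members on GA, 16 after 2 h on SBP, 37 after 8 h and 30 after 24 h, and for 6 members in all 4 conditions. SBP at 2 h was the least changed condition for 25 members, GA for 15, SBP at 24 h for 10 and SBP at 8 h for 2. Both deletion libraries lay below both reference libraries for all 52 members on GA and after 2 and 8 h on SBP, and for 50 after 24 h, against 27.4%, 21%, 33.5% and 23.3% of all genes. In all 4 conditions this held for 50 members and for 189 of all genes (1.63%), and nothing is read from these shares because the rule used the same contrasts. The other 2 members, NRRL3_06779 and NRRL3_10289, overlapped at 24 h.

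**Figure D1:**
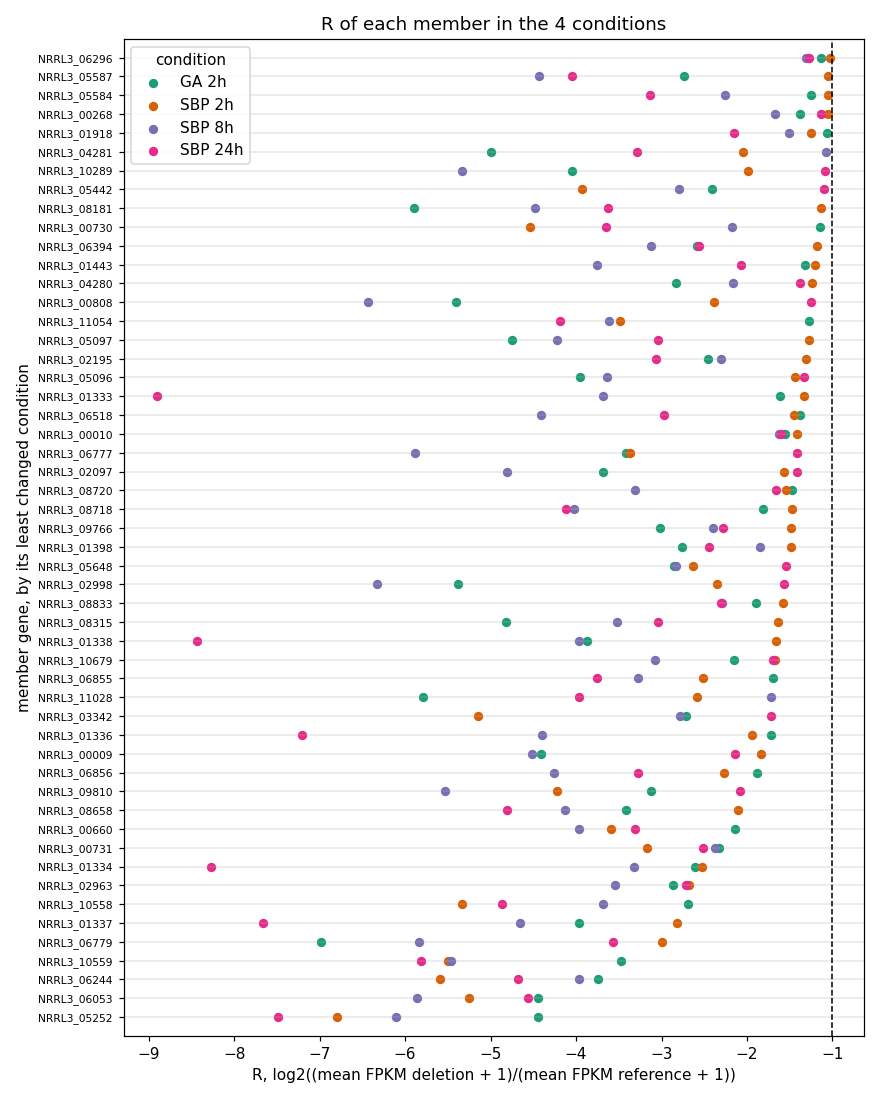
R of each of the 52 members (rows, from the highest to the lowest value in the least changed condition) in the 4 conditions (colours), on a log2 axis, with the rule's limit of -1 as a dashed line. All points lie left of the line, the rightmost point is SBP 2 h for 25 members, and the lowest row, NRRL3_05252, stays at or below -4.45.

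The members nearest the limit are described by their least changed condition. Just inside lay NRRL3_06296 with an R of -1.03 in its least changed condition, NRRL3_05584 with -1.05 and NRRL3_00268 with -1.05, each on SBP at 2 h. Just outside lay NRRL3_02935 with -0.98 and NRRL3_08952 with -0.96, both on SBP at 2 h, and NRRL3_09863 with -0.94 on SBP at 24 h. NRRL3_08952 had an R of -9.96 on GA and -5.63 on SBP at 8 h, so the limit separates it from members by 1 condition alone. Of the 52 members, 30 met the rule without each of the 16 libraries in turn, and 22 dropped out without at least 1 of them.

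The members covered a wide range of expression. Averaged over the 8 reference libraries, their levels ran from 2.56 to 3394 FPKM with a median of 79.9, against a median of 16.4 for all genes. Levels over 1000 FPKM were held by 6 members (11.5%, against 1.59% of all genes) and levels of 100 to 1000 FPKM by 18. A further 21 members lay between 10 and 100 FPKM, and 7 lay at or under 10 FPKM. A gene with a reference mean under 1 FPKM cannot reach the limit on the FPKM + 1 scale, so these shares are a description and show nothing about the members. Coding lengths differed little, with a median of 1234 bases for members and 1278 for all genes, and 7 members (13.5%, against 13% of all genes) were shorter than 600 bases.

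The condition of highest level in the reference strain varied among the members. The highest reference mean was on SBP after 8 h for 20 members, on GA for 16, after 2 h on SBP for 9 and on SBP after 24 h for 7. The lowest reference mean was on SBP at 24 h for 21 members and on SBP at 2 h for 18.

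**Figure D2:**
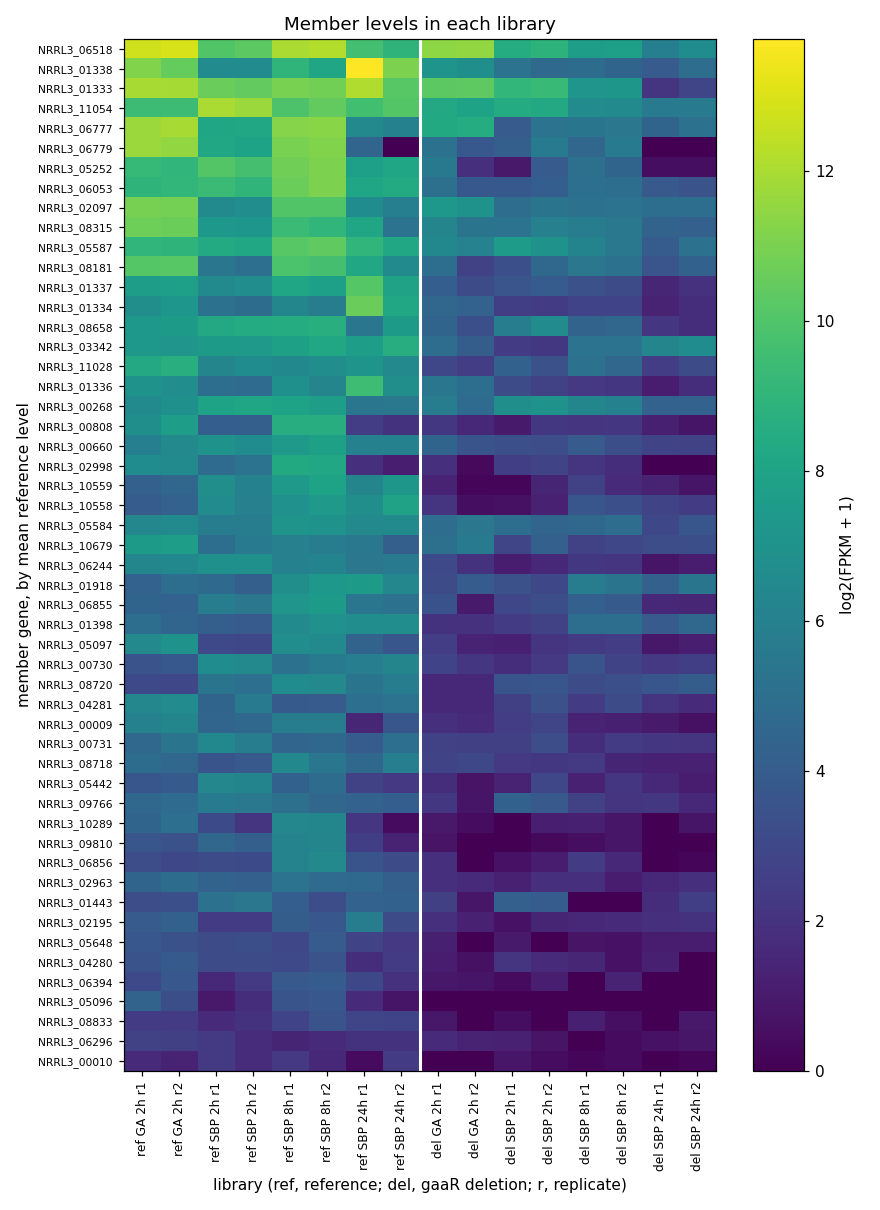
Level of each member (rows, by mean reference level) in each of the 16 libraries (columns, reference left of the white line, deletion right) as log2(FPKM + 1), shown by colour. The deletion columns are darker than the reference columns of the same condition, with overlaps at 24 h for NRRL3_06779 and NRRL3_10289, and the reference SBP 24 h replicates differ for many rows.

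The most abundant member was NRRL3_06518. In the reference strain its level was 6991 and 7757 FPKM on GA, then 1028 and 1270 after 2 h on SBP, 4170 and 4648 after 8 h, and 794 and 490 after 24 h. Without *gaaR* it was 2697 and 2978 FPKM on GA, 367 and 473 after 2 h on SBP, 198 and 216 after 8 h, and 61.3 and 101 after 24 h. Its deletion level stayed at 38.5% and 36.6% of the reference mean after 2 h on GA and SBP, and at 4.69% after 8 h. The deletion libraries lay below the reference libraries of the same condition throughout.

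NRRL3_11054 was the one among the 8 most abundant members with its peak on SBP at 2 h. Its reference level was 695 and 691 FPKM on GA, 4059 and 3350 after 2 h on SBP, 968 and 1416 after 8 h, and 781 and 1084 after 24 h. The deletion strain held 316 and 255 FPKM on GA, 347 and 313 after 2 h on SBP, 98.6 and 95.3 after 8 h, and 51.4 and 48.5 after 24 h. In the deletion strain the libraries of GA and of SBP at 2 h overlapped, and 41.2% and 8.9% of the reference mean were left there.

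NRRL3_06777 and NRRL3_06779, 2 tags apart, were high on GA and after 8 h on SBP, and lower after 2 and 24 h on SBP. NRRL3_06777 had 3274 and 3995 FPKM on GA in the reference strain, 267 and 289 after 2 h on SBP, 2454 and 2551 after 8 h, and 86.8 and 65.5 after 24 h. Its deletion levels were 323 and 359, 14.5 and 37.3, 39.7 and 42.5, and 21 and 34.8 FPKM in the same order. All deletion libraries lay below the reference libraries of their condition. The shorter neighbour NRRL3_06779 had 3301 and 2897 FPKM on GA, 292 and 254 after 2 h on SBP, 2020 and 2296 after 8 h, and 21.7 and 0 after 24 h. Its deletion levels were 34 and 12.9 FPKM on GA, 16.7 and 49.8 after 2 h on SBP, 22.2 and 51.4 after 8 h, and 0 in both libraries after 24 h. At 24 h the reference strain had 21 and 0 reads of it, so the lower level in the deletion strain there rests on 1 library.

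NRRL3_05252 and NRRL3_06053 had the lowest R in their least changed condition, -4.45 each. NRRL3_05252 had 585 and 532 FPKM on GA in the reference strain, 1079 and 837 after 2 h on SBP, 1718 and 2116 after 8 h, and 217 and 282 after 24 h. The deletion strain held 46.6 and 2.73 FPKM on GA, 0.95 and 14.2 after 2 h on SBP, 33.2 and 20.3 after 8 h, and 0.4 in both libraries after 24 h. The deletion mean was 4.42%, 0.792%, 1.4% and 0.16% of the reference mean in the 4 conditions. The deletion libraries were far apart at 2 h in both media, and those with the more *gaaR* reads were the higher ones.

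NRRL3_06053 had 490 and 555 FPKM on GA in the reference strain, 655 and 515 after 2 h on SBP, 1594 and 2079 after 8 h, and 266 and 336 after 24 h. Its deletion levels were steadier, 33 and 12.9 FPKM on GA, 12.6 and 16.2 after 2 h on SBP, 31.2 and 30 after 8 h, and 13.4 and 10.3 after 24 h. The deletion level was 4.4%, 2.47%, 1.67% and 3.93% of the reference mean in the 4 conditions. Both genes were highest on SBP at 8 h in the reference strain.

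**Figure D3:**
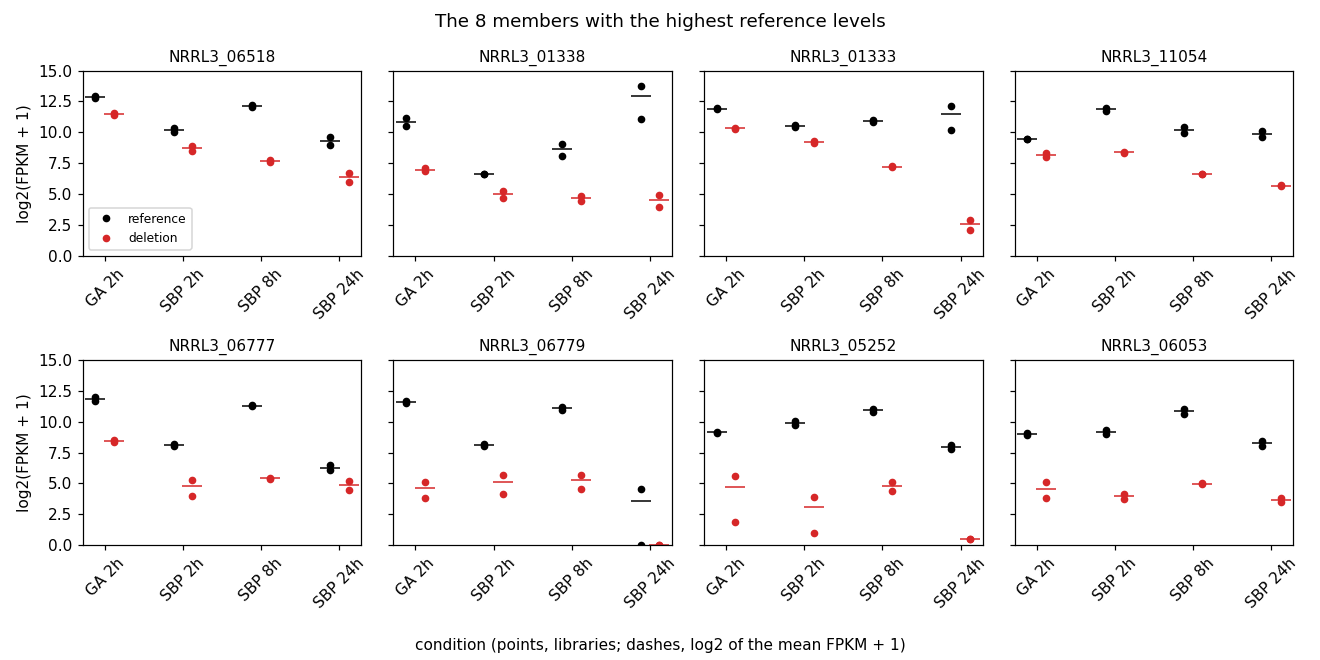
Levels of the 8 members with the highest mean reference level, as log2(FPKM + 1), in the 4 conditions (black, reference; red, deletion; points, single libraries; dashes, log2 of the mean FPKM + 1). NRRL3_06518, NRRL3_01333, NRRL3_06777 and NRRL3_06779 are high on GA, NRRL3_11054 on SBP at 2 h, and at 24 h the replicates of NRRL3_01338, NRRL3_01333 and NRRL3_06779 lie apart.

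Other members with low R throughout included NRRL3_06244 (-3.74 in its least changed condition), NRRL3_10559 (-3.47) and NRRL3_01337 (-2.82). NRRL3_06244 had 77.3 and 84.5 FPKM on GA, 119 in both libraries after 2 h on SBP, 66 and 74 after 8 h, and 42.8 and 52.1 after 24 h in the reference strain. Its deletion levels did not exceed 7.2 FPKM, with 0.74 and 1.04 FPKM at 24 h. Its reference replicates at 24 h were 1.22-fold apart.

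NRRL3_10558 and NRRL3_10559 have adjacent tags. NRRL3_10559 had 17.9 and 22 FPKM on GA, 109 and 64 after 2 h on SBP, 164 and 252 after 8 h, and 76.9 and 157 after 24 h in the reference strain, and 1.62 and 0.18, 0.18 and 1.69, 5.33 and 2.18, and 1.48 and 0.74 in the deletion strain. NRRL3_10558 had 14.9 and 19.2 FPKM, 97 and 62.1, 124 and 167, and 109 and 244 in the reference strain. Without *gaaR* it had 3.15 and 0.45 FPKM, 0.55 and 1.44, 11.7 and 9.1, and 5.98 and 4.15. Both were lowest on GA in the reference strain, and the deletion libraries lay below the reference libraries in each condition.

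By tag number, 24 members lay within 3 tags of another member or of a named gene, in 11 runs. Adjacent tags joined 17 members in 9 pairs. How many genes of the whole set lie as near to these tags was not counted, so these numbers are a description. The largest run was NRRL3_01333, NRRL3_01334, NRRL3_01336, NRRL3_01337 and NRRL3_01338. Whether tag numbers follow the order on the chromosomes, and the distances in bases, were not analysed here.

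In this run the reference levels at 24 h depended on the library. NRRL3_01338 had 13824 and 2119 FPKM there, NRRL3_01333 had 4467 and 1141, and NRRL3_01337 had 1103 and 238. NRRL3_01334 had 1578 and 306 FPKM and NRRL3_01336 had 711 and 111. Replicate 1 was higher for all 5 by 3.91-fold to 6.52-fold, and the deletion strain had 1.03 to 29.5 FPKM. The lower replicate was still above every deletion library of that time.

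In the other conditions the reference replicates of each of the 5 lay at most 1.95-fold apart. On GA, NRRL3_01333 had 3981 and 3818 FPKM in the reference strain and 1266 and 1286 in the deletion strain, where 32.7% was left. NRRL3_01338 had 2252 and 1458 against 137 and 114 on GA, and 98.7 and 100 against 36.8 and 24.7 on SBP at 2 h. NRRL3_01336 had 30.2 and 26.7 against 7.78 and 5.55 FPKM on SBP at 2 h. On SBP at 8 h the 5 genes kept 3.6% to 8.67% of their reference means, and at 24 h they kept 0.173% to 0.432%.

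Genes between and beside them did not all share this. NRRL3_01335, inside the run, had an R of -0.10 on GA, -0.00 after 2 h on SBP, -1.41 after 8 h and -2.81 after 24 h. NRRL3_01340, beyond the end of the run and not a member, had -1.64, 1.21, -3.41 and -9.10. NRRL3_01339 had -1.07 on GA, 0.55 after 2 h on SBP, -2.09 after 8 h and -6.79 after 24 h. Over the 69 other genes within 3 tags of a run, 33 (47.8%) reached the limit in no condition and 7 (10.1%) in 3, against 69.6% and 2.21% of all genes.

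**Figure D4:**
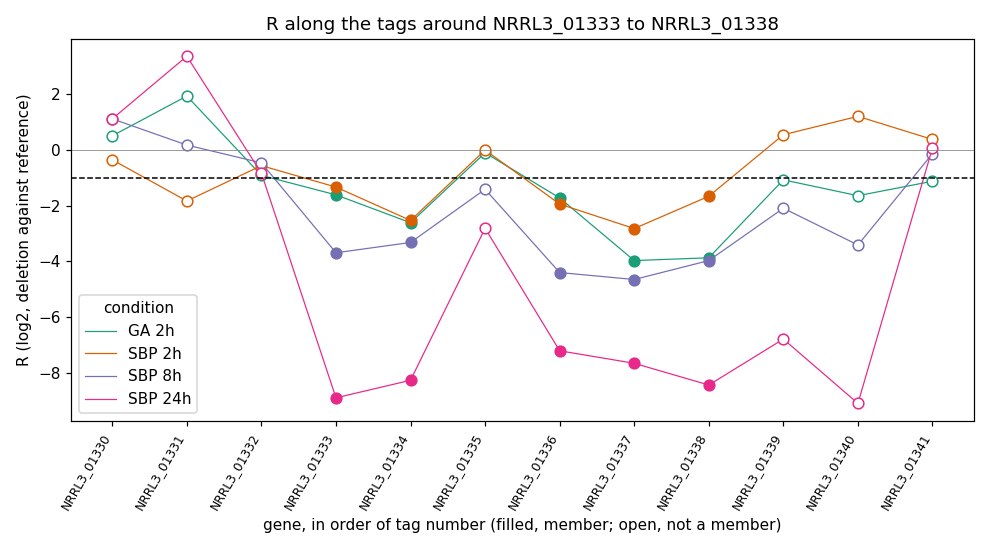
R (log2, deletion against reference) for 12 genes in tag order around NRRL3_01333 to NRRL3_01338, with members as filled points, other genes as open points, conditions as colours and the limit of -1 as a dashed line. The 24 h values of the 5 members lie between -7.21 and -8.90, and NRRL3_01339 and NRRL3_01340 are low at 24 h but above 0 on SBP at 2 h.

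The other runs were pairs, except for one beside named genes. NRRL3_05648 precedes *gaaC* (NRRL3_05649) and *gaaA* (NRRL3_05650), the aldolase and reductase genes of GA catabolism. Its reads in the reference strain numbered 18 and 16 for GA, 13 and 16 for SBP at 2 h, 11 and 23 at 8 h, and 12 and 8 at 24 h, and 0 to 2 in each deletion library. The *gaaC* level in the reference strain on GA was 5754 and 5562 FPKM, against 12.5 and 9.52 for NRRL3_05648. Whether the reads were counted by strand is not given in the sources used here, and gene positions were not at hand. Whether the 2 genes overlap, and whether reads of *gaaC* were counted for NRRL3_05648, was therefore not tested.

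NRRL3_00730 and NRRL3_00731 were both highest on SBP at 2 h in the reference strain. NRRL3_00730 had 104 and 88.8 FPKM there, against 10.6 and 12.7 on GA. Without *gaaR* it had 2.48 and 3.87 FPKM on SBP at 2 h and 5.84 and 3.5 on GA, so its R was -4.54 on SBP at 2 h and -1.15 on GA. NRRL3_00731 had 83.2 and 55.6 FPKM on SBP at 2 h against 24 and 37.9 on GA, and 5.15 and 8.49 in the deletion strain on SBP at 2 h. The 2 genes with the preceding tags, NRRL3_00728 and NRRL3_00729, had an R at or below -1 on SBP at 2, 8 and 24 h, but of 0.02 and 0.31 on GA.

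NRRL3_06855 and NRRL3_06856 were both highest on SBP at 8 h. The former had 146 and 181 FPKM there in the reference strain and 17.9 and 13.9 in the deletion strain. The latter had 69.2 and 88.2 against 4.31 and 2.01. The remaining pairs were NRRL3_00009 with NRRL3_00010, NRRL3_04280 with NRRL3_04281, NRRL3_05096 with NRRL3_05097, NRRL3_05584 with NRRL3_05587 and NRRL3_08718 with NRRL3_08720. In each of these the higher member had over 2 times the mean reference level of the other, except for NRRL3_08718 with 35.1 and NRRL3_08720 with 45.9 FPKM.

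The 7 members at or under 10 FPKM rest on few reads. NRRL3_05096 had 19 and 10 reads in the reference libraries of GA, 1 and 3 in those of SBP at 2 h, 12 and 13 at 8 h, and 3 and 1 at 24 h, and 0 in all deletion libraries. NRRL3_00010 had 2 to 29 reads in the reference libraries and 0 to 5 in the deletion libraries. NRRL3_06296, just inside the limit, had 10 to 31 against 0 to 12 reads, with the replicates overlapping in no condition. In 13 members at least 1 deletion library held 0 reads, and 1 member had 0 reads in a reference library.

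A further 13 members lie outside the naming rule and are described by range. They are NRRL3_00660, NRRL3_01398, NRRL3_01918, NRRL3_02195, NRRL3_02963, NRRL3_06394, NRRL3_08315, NRRL3_08658, NRRL3_08833, NRRL3_09810, NRRL3_10289, NRRL3_10679 and NRRL3_11028. Their mean reference levels were 5.32 to 638 FPKM, and their R in the least changed condition was -2.68 to -1.06. NRRL3_08315, the most abundant, had 1673 and 1612 FPKM on GA in the reference strain and 76.8 and 37.6 in the deletion strain, and its reference libraries at 24 h, 282 and 37.4 FPKM, were 7.56-fold apart.

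The next comparisons are within a strain, whereas the rule compared strains. They use the same 16 libraries as the rule and are not independent of it, so the members' shares beside those of all genes are a description. Within the reference strain they ask how the members move between carbon sources and over time on pectin, and all 52 passed the low-count filter. Over the 52 members, 10 rose and 24 fell on SBP at 2 h against GA in edgeR's quasi-likelihood test at an adjusted p under 0.05, while 27.3% of the 10003 genes tested rose and 25.3% fell (52.6% together). As shares of the members this is 19.2% and 46.2%. The median member log2 fold change was -0.74, against 0.06 over all genes tested.

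The largest rises were NRRL3_00730 and NRRL3_05442. NRRL3_00730 changed from 10.6 and 12.7 FPKM on GA to 104 and 88.8 on SBP, a log2 fold change of 2.99 (SE 0.30, adjusted p = 6.9e-07). NRRL3_05442 changed from 11.8 and 13.7 to 81.4 and 72.9 FPKM (2.54, SE 0.41, adjusted p = 9.3e-05). The groups of both genes lay apart. NRRL3_08181 fell from 1111 and 1153 to 42 and 31.6 FPKM, a change of -5.00 (SE 0.62, adjusted p = 7.3e-06). NRRL3_02097 fell from 1945 and 1888 to 96.1 and 107 FPKM, a change of -4.29 (SE 0.25, adjusted p = 6.7e-09).

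Among the abundant members, NRRL3_06518 (-2.73, SE 0.31), NRRL3_06777 (-3.76, SE 0.36) and NRRL3_06779 (-3.55, SE 0.52) fell from GA to SBP at 2 h, and NRRL3_11054 rose (2.37, SE 0.27), by the same test. Of the run from NRRL3_01333 to NRRL3_01338, all 5 members fell, from -1.13 for NRRL3_01337 to -4.26 for NRRL3_01338. The call was lost for NRRL3_01337 without any 1 of the 4 libraries (adjusted p = 0.096 to 0.2 in edgeR) and for NRRL3_01333 without SBP 2 h replicate 2 (0.061). NRRL3_05252 and NRRL3_06053 did not pass.

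On SBP in the reference strain 27 members (51.9%) rose and 7 (13.5%) fell from 2 to 8 h, against 21% and 19.5% of all genes tested (40.5% together), by the edgeR test. This comparison shares the reference SBP 2 h libraries with the preceding one, so the values are given side by side and not set against each other. The median member changed by 1.16, and the median of all genes by -0.02.

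NRRL3_08181 rose from 42 and 31.6 to 923 and 836 FPKM, a log2 fold change of 4.45 (SE 0.61, adjusted p = 3.1e-05). NRRL3_00808 rose from 16.1 and 16.9 to 374 and 377 FPKM (4.38, SE 0.40, adjusted p = 8e-07). The 2 time points did not overlap for either. NRRL3_05442 fell from 81.4 and 72.9 to 18.2 and 28.4 FPKM (-1.85, SE 0.39, adjusted p = 0.0015), a call that limma on log2(FPKM + 0.1) did not make (adjusted p = 0.057). NRRL3_00731 fell from 83.2 and 55.6 to 21.1 and 23.3 FPKM (-1.77, SE 0.34, adjusted p = 0.00058). Of the members with low R throughout, NRRL3_06053 rose (1.53, SE 0.28, adjusted p = 0.00041) and NRRL3_06244 fell (-0.90, SE 0.22, adjusted p = 0.0043), a call lost without SBP 8 h replicate 1 (0.061).

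From 8 to 24 h in the reference strain 5 members (9.62%) rose and 26 (50%) fell, against 23.5% and 21.4% of all genes tested (44.9% together). The median member changed by -1.07 and the median of all genes by 0.05. Of the 5 that rose, 4 were NRRL3_01334, NRRL3_01336, NRRL3_01337 and NRRL3_01338, and the other was NRRL3_04281. NRRL3_01336 went from 119 and 75.6 to 711 and 111 FPKM (2.01, SE 0.54) and NRRL3_01337 from 273 and 213 to 1103 and 238 FPKM (1.40, SE 0.45), with overlapping groups in both. Without replicate 1 at 24 h these values were 0.11 and -0.10 and neither was called (adjusted p = 0.82 for each in edgeR). NRRL3_04281 changed by 1.19, and its call was lost without SBP 8 h replicate 1 (0.08) or replicate 2 (0.051) or SBP 24 h replicate 2 (0.055). The count of rises was 3 without the reference SBP 24 h replicate 1, and 3 without either SBP 8 h replicate.

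NRRL3_01338 rose from 520 and 266 FPKM at 8 h to 13824 and 2119 at 24 h, a log2 fold change of 4.28 (SE 0.65, adjusted p = 5.7e-05). Without the higher 24 h library it was 2.36, and without the lower one 5.08. NRRL3_01334 rose from 79.9 and 54.2 to 1578 and 306 FPKM (3.75, SE 0.53, adjusted p = 3e-05), with 2.12 and 4.49 in the same order. Both libraries at 24 h were above both at 8 h for these 2 genes. NRRL3_06779 fell from 2020 and 2296 FPKM to 21.7 and 0 (-7.70, SE 0.68, adjusted p = 4e-07), and the value was -13.82 without replicate 1 at 24 h, a fitted value against a library without a read, and -6.70 without replicate 2. NRRL3_02998 fell from 326 and 287 FPKM to 2.72 and 1.2 (-7.33, SE 0.40, adjusted p = 4.5e-09), and the change was -8.02 without replicate 1 at 24 h.

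NRRL3_00808 (-6.69, SE 0.46) and NRRL3_06777 (-5.11, SE 0.38) also fell by over 5 on the log2 scale. NRRL3_10289 fell from 82.8 and 79.9 FPKM to 3.46 and 0.34, which rest on 10 reads and 1 read (-5.46, SE 0.65), and the change was -7.78 without replicate 1 at 24 h and -4.60 without replicate 2. NRRL3_06518 changed by -2.85 (SE 0.32), NRRL3_05252 by -3.02 (SE 0.74) and NRRL3_06053 by -2.69 (SE 0.29), each called by the edgeR test, whereas NRRL3_10558, NRRL3_10559 and NRRL3_11054 were not called at 24 h against 8 h.

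**Figure D5:**
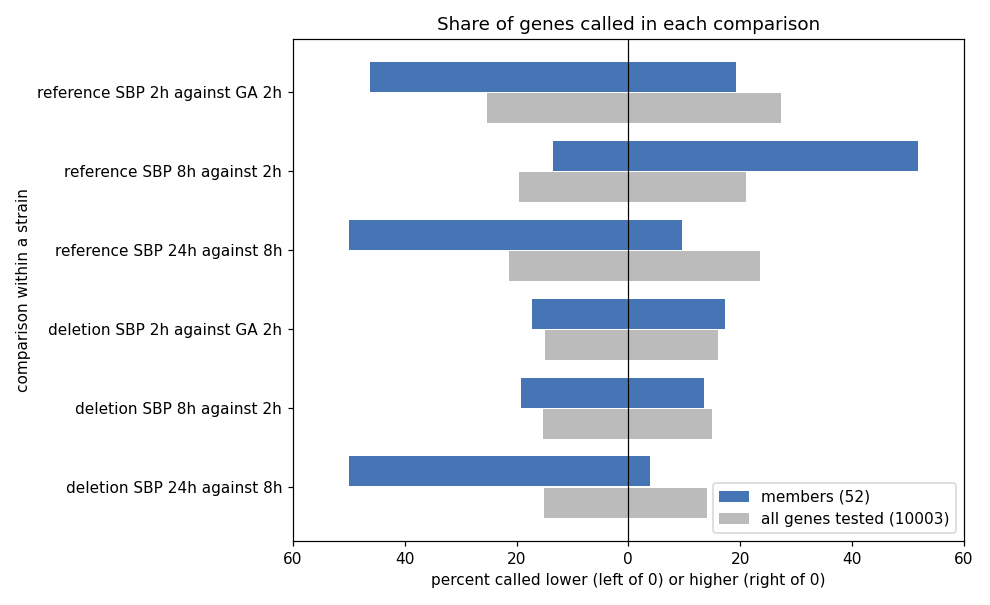
Share of the 52 members (blue) and of the 10003 genes tested (grey) called lower (left) or higher (right) in edgeR's test in each of 6 comparisons within a strain, in percent. In the reference strain 46.2% of members are lower after 2 h on SBP than on GA, 51.9% are higher after 8 h than at 2 h and 50% are lower after 24 h than after 8 h.

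The same comparisons in the deletion strain describe how the members moved without *gaaR*. The rule chose members for low levels in this strain, and 13 had 0 reads in at least 1 deletion library. Changes at such levels are harder to call, so fewer calls do not show that the members stopped moving. On SBP at 2 h against GA, 9 members rose and 9 fell (17.3% each), against 16.1% and 14.9% of all genes tested (31% together), shares near the background. Without GA replicate 2 the rises numbered 5. The median member changed by -0.19 and the median of all genes by 0.03. The difference between the strains in these counts was not tested.

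NRRL3_09766 rose from 3.69 and 0.73 to 18 and 13.5 FPKM (2.99, SE 0.48, adjusted p = 0.00021), and it was 4.30 without GA replicate 1 and 2.30 without GA replicate 2. NRRL3_08720 rose from 1.84 and 1.87 to 10.9 and 11.8 FPKM (2.63, SE 0.33, adjusted p = 2.4e-05). NRRL3_06777 fell from 323 and 359 to 14.5 and 37.3 FPKM (-3.74, SE 0.36, adjusted p = 2.3e-06), and the change was -4.38 without SBP 2 h replicate 2. The 2 carbon sources did not overlap for any of these 3 genes. NRRL3_06518 fell from 2697 and 2978 to 367 and 473 FPKM (-2.74, SE 0.31, adjusted p = 1.1e-05). For NRRL3_06518 and NRRL3_06777 the fitted values in the reference strain were -2.73 and -3.76.

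From 2 to 8 h on SBP in the deletion strain 7 members rose and 10 fell (13.5% and 19.2%), against 15% and 15.3% of all genes tested (30.3% together), again near the background. The 17 calls became 10 without SBP 8 h replicate 1 and 9 without replicate 2. NRRL3_10558 rose from 0.55 and 1.44 to 11.7 and 9.1 FPKM (3.30, SE 0.60, adjusted p = 0.00063), or by 3.94 without SBP 2 h replicate 2. NRRL3_03342 rose from 4.33 and 3.77 to 36.8 and 36.7 FPKM (3.04, SE 0.37, adjusted p = 1.6e-05). Neither gene's groups overlapped. NRRL3_01443 had 22 and 16 reads at 2 h and none at 8 h, which is at least 12.8-fold lower with a floor of 3 reads over the group (adjusted p = 0.00026 in edgeR). NRRL3_06296 fell from 1.43 and 0.68 to 0 and 0.32 FPKM (-2.68, SE 0.91, adjusted p = 0.034), a call lost in DESeq2 (adjusted p = 0.068), in limma on log2(FPKM + 1) (0.054), and without SBP 8 h replicate 1 (0.19) or SBP 2 h replicate 1 (0.28). It was -5.85 without SBP 8 h replicate 2.

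From 8 to 24 h in the deletion strain 2 members rose and 26 fell (3.85% and 50%), against 14% and 15% of all genes tested (29% together). Leaving out any 1 of the 4 libraries lowered the number of calls. The median member changed by -1.42 and the median of all genes by 0.01. With total count scaling in place of TMM, the calls over all genes moved from 1398 higher and 1504 lower to 2251 and 969, and the member counts to 2 and 20. Under that scaling the median of all genes moved by 0.28 and the median member change was -1.15.

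NRRL3_06779 had 22.2 and 51.4 FPKM at 8 h and no read at 24 h, which is at least 27.7-fold lower with a floor of 3 reads over the group (adjusted p = 0.0013 in edgeR). NRRL3_02998 had 3.13 and 2.52 FPKM at 8 h and no read at 24 h, at least 8.62-fold lower (adjusted p = 0.0008). In both the 8 h libraries lay above the 24 h libraries. NRRL3_03342 rose from 36.8 and 36.7 to 75.2 and 102 FPKM (1.00, SE 0.29, adjusted p = 0.015), a call lost without SBP 8 h replicate 1 (0.075), replicate 2 (0.089) or SBP 24 h replicate 2 (0.17). NRRL3_01443 had no read at 8 h and 3 and 6 reads at 24 h, at least 2.2-fold higher (adjusted p = 0.029), a call lost without either 8 h library (0.11 and 0.14) or SBP 24 h replicate 2 (0.14).

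Other members of the deletion strain fell between 8 and 24 h too. NRRL3_01333 changed by -5.19 (SE 0.55), NRRL3_06855 by -3.36 (SE 0.55) and NRRL3_06244 by -2.22 (SE 0.41), each called by the edgeR test. NRRL3_01334 fell by 1.77 on the log2 scale, a call lost without any 1 of the 4 libraries (adjusted p = 0.067 to 0.17 in edgeR), while its reference value was 3.75, a difference that was not tested.

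The members most like the GA transporter gene *gatA* in their reference levels were NRRL3_05648 (Pearson's r 0.949), NRRL3_04280 (0.931), NRRL3_06779 (0.922), NRRL3_02998 (0.917) and NRRL3_00009 (0.890), by log2(FPKM + 1) over the 4 reference group means. With 4 points each and rank chosen among 52 genes, this is a description of levels.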

How the data were processed

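Members, lists and tests were chosen with earlier results of these data known. Per the file headers, a deposited file gives the RSEM expected count and FPKM of every gene listed in 1 library. BWA, Bowtie2 and RSEM are the tools in the submitters' processing notes, which give no version or role. The authors deposited the expected counts without normalization (548 of 168277 listed values, 0.326%, were not whole), and they were rounded here. The authors deposited FPKM scaled by length and library total. All lengths (100%) divide by 3 and so are coding lengths. A gene not listed in a library was taken as 0 reads.

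The two-sided quasi-likelihood F test of edgeR 4.0.16 (R 4.3.3) was run on the expected counts after TMM scaling and filterByExpr, which left 10003 genes, with all 16 libraries in 1 fit and Benjamini-Hochberg adjustment over all genes tested. The fit was tested on simulated data. SE is the size of the log2 fold change over the square root of F. Alternatives used DESeq2 1.42.0, limma 3.58.1 on log2(FPKM + 1 or 0.1), other scalings, filters, 4 libraries alone and left-out libraries. Python 3.11.15 was used for the rest.

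The named members are the 8 most abundant, the 6 with the lowest R in their least changed condition, those nearest the limit, the 2 highest and 2 lowest called per contrast, and those within 3 tags of another. The labels name no cell type besides mycelium, and markers of other cell types were not analysed here.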

Additional observations from a re-analysis of the deposited data

Results flagged for a closer look

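In 10 pairs of comparisons the fitted log2 fold changes of a member were called in both strains in opposite directions, with the libraries of each group apart. The difference between the strains was not tested. Such pairs, here and in the 17 below, were not counted over all genes tested. The counts are a description and show nothing particular to the members. On SBP at 2 h against GA, NRRL3_02998 changed by -1.71 in the reference strain and 2.05 in the deletion strain, NRRL3_04281 by -1.46 and 1.98, and NRRL3_11028 by -2.07 and 1.43. From 2 to 8 h on SBP, NRRL3_00009 changed by 1.15 and -2.07, NRRL3_00730 by -1.34 and 1.30, NRRL3_05587 by 1.84 and -1.57, NRRL3_06244 by -0.90 and 1.13, and NRRL3_06518 by 1.81 and -1.13. From 8 to 24 h, NRRL3_01334 changed by 3.75 and -1.77 and NRRL3_04281 by 1.19 and -1.52. In each of these 10 pairs at least 1 of the calls was lost when 1 library was left out (0 pairs kept both). In a further 17 pairs the groups lay apart in opposite directions in the 2 strains without a call in both. NRRL3_01337 was called in both strains from 8 to 24 h, at 1.40 and -2.17, but its reference groups overlapped. NRRL3_02998 in the deletion strain rests on 8 and 1 reads on GA and 19 and 20 on SBP at 2 h.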

How the results depend on the processing

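The number of members, which excludes the 21 left-out genes, moved with the added FPKM. It was 80 with 0.1 in place of 1 and 25 with 10, and 13 genes met the rule at R of -2 or below. With TMM-scaled CPM + 1 in place of FPKM + 1 the number of members was 58, with 50 shared. That scale differs in the scaling between libraries and is not divided by gene length, so the added 1 weighs differently. Leaving out each library in turn gave 49 to 63. Most counts of calls within a strain changed little, taken as at most 1.5-fold. With only the 4 libraries compared, rises were 16 on SBP at 2 h against GA and 3 from 8 to 24 h in the reference strain, and 5 and 1 in the same comparisons in the deletion strain. Limma on log2(FPKM + 0.1) gave 3 falls from 2 to 8 h and 3 rises from 8 to 24 h in the reference strain. Leaving out each library of a comparison in turn gave 3 to 6 rises from 8 to 24 h in the reference strain. In the deletion strain it gave 5 to 10 rises on SBP at 2 h against GA, 9 to 18 calls from 2 to 8 h (4 to 9 rises, 4 to 9 falls), and 18 to 21 calls from 8 to 24 h with 0 to 2 rises. Fits of 4 libraries or without a library hold fewer samples, and the cause of the other changes was not tested. Shares of all genes called in these fits are not given here, so the counts describe only how the member calls moved. With total count scaling the median of all genes moved by 0.12 and 0.11 from 2 to 8 h in the reference and deletion strains and by 0.28 from 8 to 24 h in the deletion strain. The number of members whose groups lay apart in all 4 conditions was 50 with TMM-scaled CPM too, an alternative chosen after seeing the data. Nothing is read from this number, because the rule used the same contrasts and the share of all genes on that scale is not given. Refits of named results cover the 2 highest and 2 lowest called changes per contrast. These were picked from the same libraries as the most extreme calls, so their refits say nothing about the other calls. Of 285 refits of the 24 named results, 274 kept direction and call, 11 lost the call and 0 reversed.

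The labels do not say that equal replicate numbers mark a shared culture, and the deviations of same-numbered libraries correlated at -0.35 to 0.17. With the replicate block, 11 members rose and 25 fell on SBP at 2 h against GA, 27 and 8 from 2 to 8 h, and 5 and 25 from 8 to 24 h in the reference strain. In the deletion strain the block gave 9 and 9, 7 and 10, and 2 and 26. The shares of all genes called with the block are not given here, so nothing about the members is read from these counts. With 2 libraries a group, members under 10 FPKM rest on few reads, and single libraries set the size of their changes.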
